A study of Mus musculus with 4 samples.

Results

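The Rab GTPases are small GTP-binding proteins that give the membranes of a cell their identity and direct the budding, movement, tethering and fusion of transport vesicles. Their genes were taken as the array rows, control spots aside, whose gene name was Rab followed by a number and at most a letter and a further digit. This gave 58 genes of the 28149 named on the array, read by 113 probes, and the brightest probe over the 4 arrays, by mean log2 signal, stood for each gene. A gene entered the test if the 2 arrays of 1 genotype or both read its probe well above background, which held for 51 Rab genes among 16579 genes in all. The choice of members used names and brightness and not the difference between genotypes.

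RNA came from 2 samples of miR-223 knockout (labelled miR-223 KO) and 2 of wild-type bone marrow cells, all from male mice of strain C57BL/6, after 4 days of culture in 40 ng/ml GM-CSF, a growth factor for granulocytes and macrophages, and a sort for expanding immature granulocytes. The labels give neither the construction of the knockout allele nor the age of the mice, and do not say whether the samples of a genotype came from separate animals or cultures, so p-values measure only the spread between these samples. Each sample was hybridised to 1 single-colour Agilent array, and the number of arrays limits the precision of every value. Between 57.6% and 63.5% of the probes on an array were well above background and none was saturated. All 16 granulocyte markers of a list that included Mpo, Elane, Ltf, Ngp and S100a8 were well above background, with mean levels of 6.08 and 6.34 on the knockout arrays and 5.62 and 6.06 on the wild-type arrays. Levels here are log2 signals relative to the 75th percentile of the array, so 0 is that percentile, and differences are knockout minus wild type with limma's standard error (SE) and n = 2 arrays per genotype. No probe named for miR-223 was found on the array, so the genotype could not be checked on the deleted gene.

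A Rab protein is made in a GDP-bound form, receives geranylgeranyl lipid tails with the help of an escort protein, and cycles between membrane and cytosol with a GDP dissociation inhibitor. Exchange factors, many with a DENN domain, load it with GTP on its target membrane, effectors then bind the GTP form, and GTPase-activating proteins, mostly with a TBC domain, switch it off. In neutrophils and their precursors, Rab27a and its effector Munc13-4 bring the granules to the plasma membrane, and Rab3d and Rab37 sit on secretory granules of several blood and gland cells. miR-223 is a microRNA of the granulocyte lineage that represses messages carrying a match to its seed, bases 2 to 8.

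The 2 mature arms of the microRNA removed in the knockout are shown because their seeds define the letters searched for in the array probes. Both are given 5′ to 3′ from RefSeq (GRCm38.p6) with the seed in capitals. The 3p arm lies at chrX:96242884-96242905 and the 5p arm at chrX:96242842-96242864, both on the plus strand.
miR-223-3p: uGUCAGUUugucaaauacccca
miR-223-5p: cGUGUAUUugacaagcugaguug
The complement of the 3p seed, AACTGAC, was present in 0 of the 113 Rab probes and in 0.372% of all 41174 probes. The complement of the 5p seed, AATACAC, was present in 1 Rab probe and in 0.350% of all probes. A probe covers a short stretch of a transcript, so these counts describe the probes and not the messages.

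Differences in Rab genes between the genotypes were mostly small. Of the 10 tested Rab genes of granules and lysosome-related organelles, 7 had a positive difference, against 54.8% of all genes, and 1 of them, Rab3d, had an unadjusted p under 0.05. The test called 0 of the 51 Rab genes at an adjusted p of 0.05 (limma, Benjamini-Hochberg over all genes tested), against 0% of all genes. The smallest adjusted p of a Rab gene was 0.239. At an unadjusted p of 0.05, 7 Rab genes were higher in knockout, where 8.04% of all genes were, and 2 were lower, where 5.55% of all genes were. For 18 Rab genes the lower knockout array exceeded the higher wild-type array (35.3%), against 28% of all genes, and for 8 the reverse held (15.7%), against 20.1% of all genes. Rab27b was among these 8, and 7 lay below when all 4 arrays had to be well above background. Scaled instead on the spike-in controls, 9 Rab genes lay above and 18 below, against 16.7% and 28.2% of all genes.

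The median log2 difference of the 51 tested Rab genes was 0.12, against 0.03 for all genes tested. It was positive for 31 Rab genes and negative for 20. As deviations from the wild-type mean, the Rab medians stood at 0.12 and 0.10 on the knockout arrays and at -0.02 and 0.02 on the wild-type arrays. Over 14 other ways of processing the arrays the Rab median lay between 0.03 and 0.14. The lower end came from the spike-in scaling, which set the median of all genes at -0.06, and without wild-type array 1 the Rab median was 0.05. A difference above 0.5 in size was found for 8 Rab genes (15.7%), against 15.4% of all genes. Among the Rab genes only Rab27b (1.96%) differed by more than 2-fold, against 3.59% of all genes. Rab27b entered the test through its wild-type arrays, and its knockout array 2 was not above background, so that size is uncertain.

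**Figure D1:**
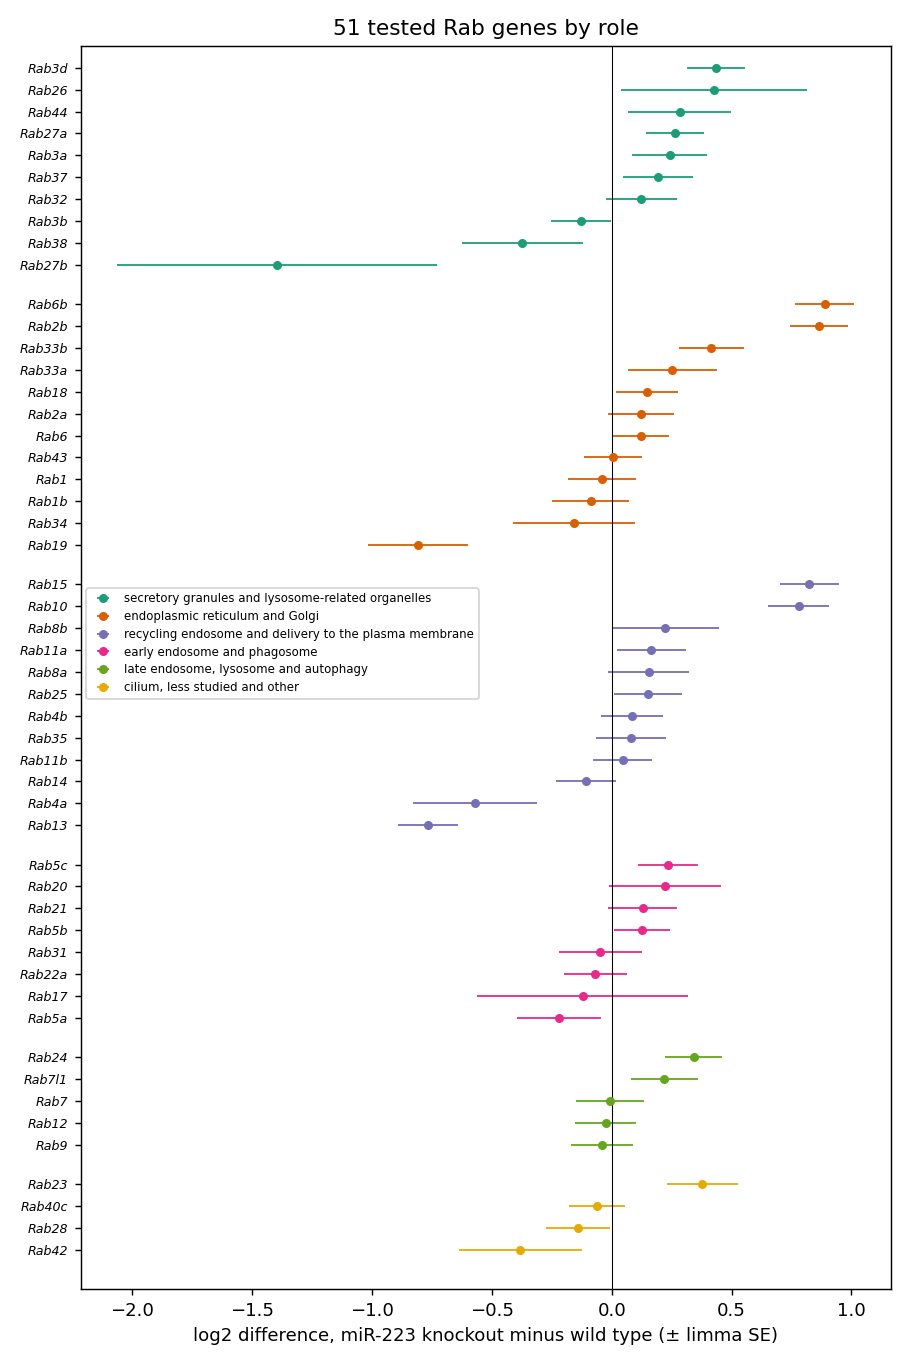
Log2 difference of each of the 51 tested Rab genes, miR-223 knockout minus wild type, with bars for limma's standard error (n = 2 arrays per genotype) and colours for the role of the protein. Most points lie near 0, 7 stand beyond 0.5 on the positive or negative side in the Golgi and recycling groups, and Rab27b at -1.40 has the widest bar.

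Among the Rab proteins of granules and lysosome-related organelles, the 3 linked to granule secretion in blood cells, Rab27a, Rab3d and Rab37, were each higher on both knockout arrays than on both wild-type arrays. Rab3d, which sits on mature secretory granules, had levels of 3.96 and 4.04 on the knockout arrays, against 3.57 and 3.56 on the wild-type arrays. Rab27a, the Rab of neutrophil granule docking, had 2.46 and 2.52 on the knockout arrays, against 2.26 and 2.19 on the wild-type arrays. Rab37, first found in mast cells and tied to regulated exocytosis, had 0.18 and 0.08 on the knockout arrays, against -0.18 and 0.06 on the wild-type arrays. The genotypes did not overlap for any of the 3, but for Rab37 the lower knockout array and the higher wild-type array nearly met. Among all genes tested, 28% had both knockout arrays above both wild-type arrays.

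The log2 difference of Rab3d was 0.43 ± 0.12 (SE, n = 2 per genotype), 1.35-fold, with an adjusted p of 0.300 by limma. That of Rab27a was 0.26 ± 0.12, 1.20-fold, with an adjusted p of 0.433 by limma, and that of Rab37 was 0.19 ± 0.15, 1.14-fold, with an adjusted p of 0.603 by limma. None of these passed the test, and each difference kept its sign in all 14 other settings. With spike-in scaling the differences of Rab27a and Rab37 were 0.17 and 0.10, and without wild-type array 1 that of Rab37 was 0.07. A second probe for each gene, not used in the choice, gave the same sign. The second Rab3d probe had 1.69 and 1.83 on the knockout arrays, against 0.76 and 1.30 on the wild-type arrays, a difference of 0.73. The second Rab27a probe had -1.41 and -1.37 on the knockout arrays, against -1.78 and -2.01 on the wild-type arrays, a difference of 0.50. The second Rab37 probe had -0.60 and -0.57 on the knockout arrays, against -1.05 and -0.81 on the wild-type arrays, a difference of 0.34. The knockout arrays were therefore above the wild-type arrays for all 6 probes of these genes. The 2 probes of a gene read the same RNA samples and are not replicates.

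On mm9, the build of the array annotation, the chosen probes lay at chr9:72944668-72944727 for Rab27a (plus strand), chr9:21713734-21713793 for Rab3d (minus strand) and chr11:115023290-115023349 for Rab37 (plus strand). Their place in exons was not assigned, since no annotation of that build was used here. Of the granulocyte markers, 14 of 16 were higher and 2 lower in knockout, with a median log2 difference of 0.26 and 0 called. Lcn2, a specific granule protein, differed by 0.81, Ngp by 0.50 and Csf3r, the G-CSF receptor, by 0.44. Their part in the Rab values was not tested. In a sorted bulk sample, fewer cells of a type and less RNA per cell cannot be told apart.

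**Figure D2:**
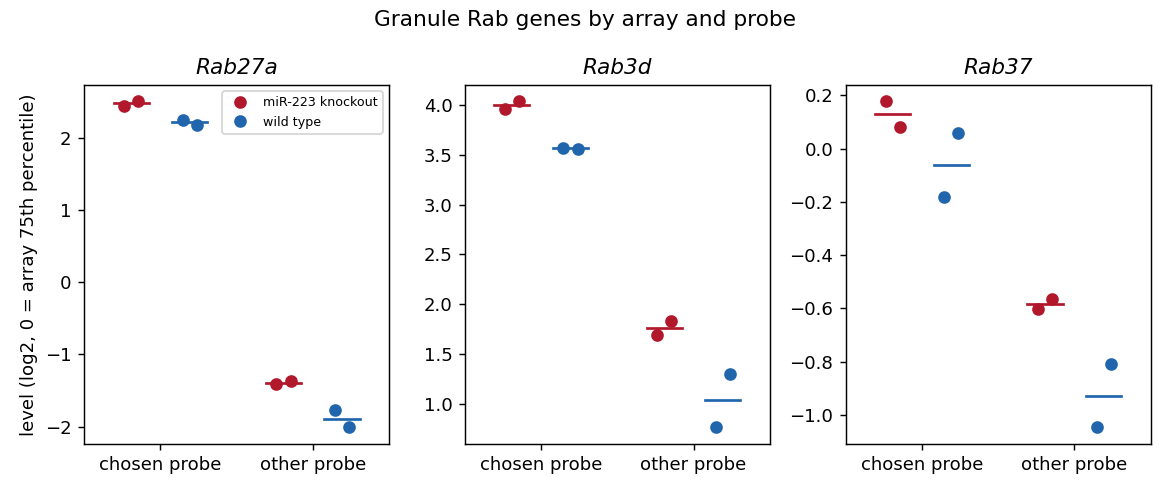
Levels of Rab27a, Rab3d and Rab37 by array on the log2 scale, where 0 is the 75th percentile of the array, for the probe used and the other probe of each gene. Points are single arrays and lines are means of 2 arrays, with knockout left of wild type, and for all 6 probes both knockout points lie above both wild-type points. Levels of different probes are not comparable, and each panel has its own axis.

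Of the other granule members, Rab44, a large Rab with calcium-binding domains known from mouse mast cells, differed by 0.28, and its knockout arrays (4.03 and 4.08) overlapped the wild-type arrays (4.04 and 3.51). Rab26, of gland granules, differed by 0.43 with an SE of 0.39 and was not above background on wild-type array 2. Rab3a, of synaptic vesicles, differed by 0.24 without overlap, and Rab32, of melanosomes, by 0.12 with overlap. Rab38, the partner of Rab32 on melanosomes, differed by -0.37 with overlap. Rab3b, a relative of Rab3a, had -4.05 and -3.92 on the knockout arrays, against -3.86 and -3.84 on the wild-type arrays, and its difference of -0.13 ± 0.13 had an adjusted p of 0.684 by limma. Rab3c was not above background on both arrays of either genotype and was not tested.

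Rab27b, the close relative of Rab27a on mast cell and platelet granules, went the other way. It had -5.42 and -7.37 on the knockout arrays, against -5.08 and -4.92 on the wild-type arrays, and knockout array 2 was not above background. The log2 difference of -1.40 ± 0.67, 2.63-fold lower in knockout, had an adjusted p of 0.443 by limma. Knockout array 2 set its size: the difference was -0.42 without that array, -2.37 without knockout array 1 and -0.23 with a normexp background correction.

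On average the mast cell and basophil markers had the same order of arrays. Their mean level was 0.73 and -0.41 on the knockout arrays, against 1.22 and 1.29 on the wild-type arrays, with 9 of 10 tested markers lower, 0 called and a median log2 difference of -1.30. Cpa3, a mast cell carboxypeptidase, had 1.74 and -0.10 on the knockout arrays, against 2.45 and 2.45 on the wild-type arrays. Gata2, a transcription factor of mast cells and progenitors, had -0.03 and -1.83 on the knockout arrays, against 0.99 and 0.98 on the wild-type arrays, and Il4 differed by -1.46. The mast cell proteases Mcpt1, Mcpt4, Tpsab1 and Tpsb2 were not above background on any array, while the basophil proteases Mcpt8 and Prss34 were measured on all arrays. The part of such cells in the Rab27b value was not tested. Sytl3, an effector that binds Rab27 proteins, had -4.70 and -5.99 on the knockout arrays, against -4.27 and -3.56 on the wild-type arrays, a difference of -1.43 ± 0.51 with an adjusted p of 0.355 by limma.

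**Figure D3:**
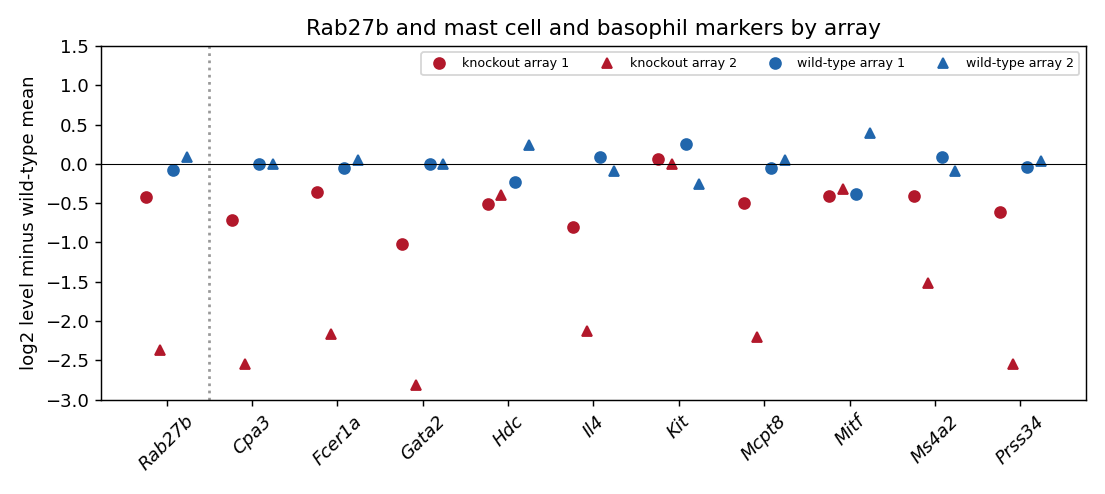
Log2 level of Rab27b and of the 10 tested mast cell and basophil markers on each array, minus the mean of the 2 wild-type arrays. Knockout arrays are red and stand left of the blue wild-type arrays, with circles for array 1 and triangles for array 2 of a genotype. For Rab27b and 7 of the markers knockout array 2 is the lowest of the 4 by a wide margin. Rab27b was not above background on knockout array 2, so its margin there is uncertain.

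The Rab proteins of the endoplasmic reticulum and Golgi held the Rab genes with the smallest p-values. Of 12 tested, 8 were higher and 4 lower in knockout, with 0 called and a median log2 difference of 0.12. Rab6b, a Golgi isoform best known from neurons, had -2.14 and -2.23 on the knockout arrays, against -3.06 and -3.08 on the wild-type arrays, and the gap between genotypes was many times the gap within them. Its difference of 0.89 ± 0.12, 1.85-fold, had an adjusted p of 0.239 by limma, and its second probe differed by 0.65. With normexp the difference was 0.51. Rab2b, an isoform of the ER-to-Golgi Rab2a, had -0.48 and -0.47 on the knockout arrays, against -1.29 and -1.38 on the wild-type arrays. Its difference of 0.86 ± 0.12, 1.82-fold, had an adjusted p of 0.239 by limma, and its second probe differed by 0.46. For both genes the knockout arrays were above the wild-type arrays with either probe. Their broadly expressed relatives Rab2a and Rab6 (now Rab6a) each differed by 0.12.

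Rab33b, a Golgi Rab that binds the autophagy protein Atg16l1, had -0.84 and -0.67 on the knockout arrays, against -1.23 and -1.11 on the wild-type arrays. Its difference was 0.42 ± 0.14 with an adjusted p of 0.332 by limma. Rab19, a little studied Golgi Rab, was lower, with 0.33 and 0.01 on the knockout arrays, against 0.78 and 1.17 on the wild-type arrays. Its difference was -0.81 ± 0.21 with an adjusted p of 0.281 by limma. The arrays of the genotypes did not overlap for either gene, and those of Rab19 varied more within a genotype. Rab33b and Rab19 each had only 1 probe on the array. Rab1 (now Rab1a) and Rab1b, which carry vesicles from the endoplasmic reticulum to the Golgi, differed by -0.04 and -0.09, and Rab18, of lipid droplets, by 0.15. Rab33a, Rab34 and Rab43 differed by 0.25, -0.16 and 0.01 with overlap, and Rab30 and Rab36 were not tested.

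The promoters of Rab27a, Rab3d and Rab2b are shown as examples of genes with all probes higher on both knockout arrays. Other genes, such as Rab6b, met this too and are not shown. Genes and motifs were chosen after the values were seen. Each is the 300 bases around the transcription start from the RefSeq promoter table (GRCm38.p6), given 5′ to 3′. The motifs searched on both strands were the E-box CACGTG, the M-box type E-box CATGTG, the PU.1 motif GAGGAAGT, the C/EBP motif TTGCNNAA and the Sp1 motif GGGCGG, and capitals mark the matches. Rab27a is at chr9:73044560-73044859 (plus strand), Rab3d at chr9:21918134-21918433 (minus strand) and Rab2b at chr14:52279346-52279645 (minus strand).
Rab27a: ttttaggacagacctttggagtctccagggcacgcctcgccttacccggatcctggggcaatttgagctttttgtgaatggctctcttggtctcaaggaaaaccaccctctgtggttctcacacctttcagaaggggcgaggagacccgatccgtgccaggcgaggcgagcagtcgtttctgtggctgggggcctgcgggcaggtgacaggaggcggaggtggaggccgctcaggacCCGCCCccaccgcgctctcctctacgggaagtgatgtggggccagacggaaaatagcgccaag
Rab3d: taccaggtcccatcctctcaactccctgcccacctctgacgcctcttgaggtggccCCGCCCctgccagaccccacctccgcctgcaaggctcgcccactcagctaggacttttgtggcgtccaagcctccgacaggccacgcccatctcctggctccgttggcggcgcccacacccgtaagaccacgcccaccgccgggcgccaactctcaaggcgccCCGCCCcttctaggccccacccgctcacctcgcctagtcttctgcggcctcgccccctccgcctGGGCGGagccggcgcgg
Rab2b: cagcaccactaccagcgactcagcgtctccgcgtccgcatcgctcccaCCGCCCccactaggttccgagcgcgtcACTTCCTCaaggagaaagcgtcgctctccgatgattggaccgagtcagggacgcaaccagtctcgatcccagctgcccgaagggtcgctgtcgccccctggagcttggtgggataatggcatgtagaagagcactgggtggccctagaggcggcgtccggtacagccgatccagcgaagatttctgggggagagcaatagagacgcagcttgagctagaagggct
The promoters shown for Rab27a, Rab3d and Rab2b held 1, 3 and 1 matches to the Sp1 motif, and that of Rab2b also held 1 to the PU.1 motif, on the reverse strand as ACTTCCTC. Rab27a has 2 promoters in the table, of which the one at its RefSeq gene start is shown, and the other holds a match to the E-box. The Sp1 motif was in 68.3% of the 60 listed promoters of Rab genes, against 35.7% of all 32851 promoters, and Rab promoters had a median GC content of 61.2%, against 52.7%. The PU.1 motif was in 3.33% of Rab promoters, against 3.20% of all. The C/EBP motif was in 6.67%, against 10.8%, the E-box in 10%, against 7.15%, and the M-box type in 10%, against 14.2%. A match describes these letters only.

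Among the Rab proteins that recycle membrane to the cell surface, Rab15 and Rab10 were higher and Rab13 and Rab4a lower in knockout. By the probe used, each was without overlap. Of 12 tested, 9 were higher and 3 lower, with 0 called and a median log2 difference of 0.12. Rab15, a Rab of recycling endosomes studied mostly in neurons, had 2.51 and 2.61 on the knockout arrays, against 1.71 and 1.76 on the wild-type arrays. Its difference was 0.82 ± 0.12, 1.77-fold, with an adjusted p of 0.239 by limma. Rab15, like Rab4a, had only 1 probe on the array. Rab13, of epithelial junctions, had -4.30 and -4.31 on the knockout arrays, against -3.48 and -3.60 on the wild-type arrays. Its difference was -0.77 ± 0.12, 1.70-fold lower in knockout, with an adjusted p of 0.242 by limma. The probe is dim, and the difference was -0.28 with a normexp background correction and -0.33 with the mean over all probes. Rab4a, of fast recycling, had -4.05 and -4.67 on the knockout arrays, against -3.94 and -3.64 on the wild-type arrays, and its difference of -0.57 ± 0.26 had an adjusted p of 0.430 by limma. For Rab4a the value was -0.26 without knockout array 2, -0.88 without knockout array 1 and -0.25 with normexp. Its relative Rab4b differed by 0.08.

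Rab10, which carries glucose transporter vesicles to the surface of fat cells, depended on the probe. The chosen probe had 2.78 and 2.83 on the knockout arrays, against 2.10 and 1.96 on the wild-type arrays, a difference of 0.78 ± 0.13 with an adjusted p of 0.242 by limma. This probe lies at chr12:3247758-3247817 (mm9, minus strand). The other 3 probes, at chr12:3249867-3252667, chr12:3252628-3252687 and chr12:3307092-3307151, differed by -0.14, 0.06 and 0.19, so only the chosen probe showed the larger difference. The first of these separated in the other direction, with 2.21 and 2.31 on the knockout arrays, against 2.41 and 2.40 on the wild-type arrays. The last, a dimmer probe, had its knockout arrays above, and the remaining one overlapped. With the mean over all probes Rab10 differed by 0.22.

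Rab14, which moves membrane between Golgi and endosomes, had 3.58 and 3.66 on the knockout arrays, against 3.78 and 3.67 on the wild-type arrays. Its difference was -0.11 ± 0.13 with an adjusted p of 0.742 by limma, and a gap of that size is within its SE. The other Rab14 probes differed by 0.21 and -0.12, both with overlap. Rab11a, Rab11b and Rab25, the Rab11 family of slow recycling, differed by 0.17, 0.05 and 0.15. The chosen Rab11b probe overlapped, while its other probes differed by 0.50, 0.14 and 0.24, each with the knockout arrays above the wild-type arrays. The Rab25 probe is dim, and its difference was -0.005 with normexp. Rab8a and Rab8b, of delivery to the surface and cilium, differed by 0.15 and 0.22, and Rab35, of fast recycling, by 0.08.

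The early endosome members were split, 4 higher and 4 lower of 8 tested, with 0 called and a median log2 difference of 0.04. Rab5c, one of the Rab5 isoforms that form the early endosome, differed by 0.23 and Rab5b by 0.13, both without overlap, and Rab5a by -0.22 with overlap. A second Rab5a probe, above background on all arrays, differed by -0.17, and the last one was not above background on either wild-type array. With the mean over all 3 probes Rab5a turned to 0.04. By the probe used, Rab20, Rab21, Rab22a, Rab31 and Rab17, which act on phagosomes, integrins and endosomes, lay between -0.12 and 0.22 with overlapping arrays. The other probe of Rab31 differed by 0.41 and that of Rab22a by 0.12, both with the knockout arrays above the wild-type arrays. The other Rab21 probe differed by 0.08 with overlap. Rab17 was not above background on wild-type array 2.

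Of the 5 tested late endosome and autophagy members, 2 were higher and 3 lower, with 0 called and a median log2 difference of -0.01. Rab24, which has been linked to autophagy, had 5.17 and 5.22 on the knockout arrays, against 4.89 and 4.83 on the wild-type arrays. Its difference of 0.34 ± 0.12 had an adjusted p of 0.349 by limma. Rab7l1 (now Rab29), a partner of the kinase Lrrk2, differed by 0.22 without overlap, and Lrrk2 itself had 1.41 and 1.49 on the knockout arrays, against 1.03 and 1.17 on the wild-type arrays. Rab7, the late endosome Rab, differed by -0.01, Rab9, of receptor retrieval to the Golgi, by -0.04, and Rab12 by -0.02. Rab9b was above background on wild-type array 2 only and was not tested.

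Of the cilium and less studied members, 1 was higher and 3 lower of 4 tested, with 0 called and a median log2 difference of -0.10. Rab23, a brake on Hedgehog signalling at the cilium, had -0.04 and -0.12 on the knockout arrays, against -0.58 and -0.33 on the wild-type arrays, and its difference of 0.38 ± 0.15 had an adjusted p of 0.381 by limma. Without wild-type array 1 it was 0.25. The other Rab23 probes differed by 0.05 with overlap and by 0.54 without overlap. Rab28, of the cilium, had 2.16 and 2.25 on the knockout arrays, against 2.26 and 2.43 on the wild-type arrays. The Rab28 difference was -0.14 ± 0.13 (adjusted p 0.679 by limma). Its other probes differed by 0.06 with overlap and by -0.24 without overlap. Rab40c, a Rab with a SOCS box, had 1.58 and 1.57 on the knockout arrays, against 1.64 and 1.63 on the wild-type arrays, a difference of -0.06 ± 0.12 (adjusted p 0.845 by limma). Rab42 differed by -0.38 with overlap. Rab39, Rab39b and Rab40b were not tested.

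Probes of 1 gene did not always give the same difference. Of 30 tested Rab genes with more than 1 measured probe, 17 were higher in knockout by all their probes, 3 lower by all, and 10 had probes of both signs. The median range of the difference over the probes of a gene was 0.20, larger than the median Rab difference of 0.12. It passed 0.5 for 3 genes, Rab10, Rab5a and Rab18, and for Rab5a and Rab18 through a dim probe not above background on every wild-type array. The chosen Rab18 probe had 2.38 and 2.29 on the knockout arrays, against 2.25 and 2.13 on the wild-type arrays, a difference of 0.15, while the others differed by -0.04 and 0.84, the last from a dim probe read above background on 1 wild-type array. Of the 51 tested members, 22 were positive and 10 negative in every setting tried, and 19 changed sign in at least 1 of them, all with a difference of at most 0.43 in size.

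**Figure D4:**
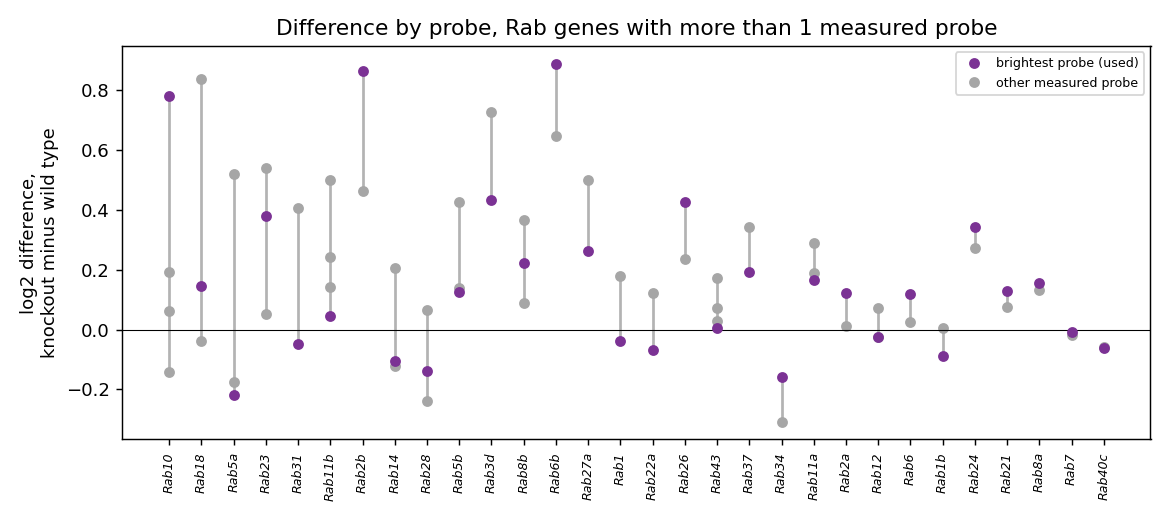
Log2 difference, knockout minus wild type, for every measured probe of the 30 tested Rab genes with more than 1 measured probe, ordered by the range over probes. A measured probe was well above background in at least 1 genotype, and the highest Rab5a and Rab18 points are from dim probes. Purple marks the probe used for the gene, grey the other probes, and Rab10, Rab18 and Rab5a at the left have the widest ranges, while both probes of Rab6b, Rab2b, Rab3d and Rab27a lie well above 0.

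The Rab differences were also set out by the brightness of the probes. Of the 51 tested Rab genes, 24 lay in the brightest of 4 equal groups of the genes tested, where their median difference was 0.12, against 0.04 for all genes there. In the next group 9 Rab genes had a median of 0.08, against -0.01 for all genes. In the second dimmest, 10 had a median of 0.25, against 0.01. In the dimmest group 8 Rab genes had a median of -0.26, against 0.12 for all genes, and 2 of them were higher in knockout. The dim members included Rab27b, Rab4a, Rab13 and Rab3b, which were lower, and Rab25 and Rab26, which were higher. The part of brightness in the differences was not tested.

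The machinery that loads and switches the Rab proteins showed no common direction, with 0 called in each list. Of the 10 prenylation and GDP dissociation inhibitor genes, 6 were higher and 4 lower, with a median log2 difference of 0.04. Chm, a Rab escort protein, differed by 0.35, Rabac1 by 0.30 and Rabggtb, a subunit of the geranylgeranyl transferase, by -0.22. Of 32 tested exchange factors, 17 were higher and 15 lower, with a median of 0.01. Sbf2, a DENN protein that activates Rab21 and Rab28, differed by -0.78 ± 0.12 with an adjusted p of 0.242 by limma, Dennd2c by -0.77, Dennd2a by 0.51 and Dennd4a, an activator of Rab10, by 0.50.

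Of 32 tested GTPase-activating proteins, 15 were higher and 17 lower, with a median log2 difference of -0.01. Rabgap1, which acts on Rab6 and is also an effector of it, had -1.85 and -1.78 on the knockout arrays, against -2.49 and -2.51 on the wild-type arrays, a difference of 0.69 ± 0.12 with an adjusted p of 0.242 by limma. Usp6nl, which acts on Rab5, differed by -0.90, Tbc1d8 by 0.57 and Evi5l by 0.49. Of the 12 tested granule effectors, 4 were higher and 8 lower, with a median of -0.03. Unc13d, the Munc13-4 that works with Rab27a in neutrophils, had 2.87 and 2.89 on the knockout arrays, against 3.07 and 2.85 on the wild-type arrays, with overlap. Rph3a, a Rab3 effector, differed by 0.67 and Lrrk2 by 0.35. Of 40 tested effectors of endosomal and Golgi Rabs, 22 were higher and 18 lower, with a median of 0.03, and Rilp, the Rab7 effector, differed by -0.42, Micall2 by 0.47 and Mical1 by 0.38.

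Some markers of other cells differed by more than the Rab genes did, and none was called. Of 15 tested macrophage and monocyte markers, 2 were higher and 13 lower in knockout, with a median log2 difference of -1.11 and mean levels of 0.02 and -0.15 on the knockout arrays, against 0.74 and 0.95 on the wild-type arrays. Mertk, a receptor for dying cells, differed by -2.04, Fn1 by -1.91 and Vcan by -0.95. The 2 higher markers had both knockout arrays above both wild-type arrays (13.3%), against 28% of all genes, with a largest difference of 0.75. For 11 of the lower ones the reverse held (73.3%), against 20.1% of all genes. Of the dendritic cell and MHC class II markers 10 of 12 were lower, with a median of -0.39, and of the megakaryocyte and platelet markers 5 of 8, with a median of -0.45. Lower in knockout were 4 of 6 eosinophil markers (median -0.15), 4 of 6 B cell markers (-0.27), 1 of 3 T and NK cell markers (0.03) and 2 of 5 erythroid markers (0.27). The eosinophil markers had mean levels of 0.31 and 0.59 on the knockout arrays, against -0.40 and 1.43 on the wild-type arrays. Their wild-type means thus lay on both sides of the knockout means. The 1 eosinophil marker with an unadjusted p under 0.05 by limma was higher in knockout. The defining genes Pax5 and Ebf1 of B cells, Cd3g and Zap70 of T cells, Klf1 of erythroid cells and Gp1ba and Gp5 of platelets were not above background on any array. The part of these cells in the Rab differences was not tested.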

How the data were processed

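Total RNA was labelled with Cy3, per the labels' protocols, and hybridised to 4 arrays of 1 slide with 1 scan time. The intensity values were made with Agilent Feature Extraction 10.5.1.1, per the file headers, which removes local background and gives dim spots surrogate values. The authors' log2 values, as deposited, differ from log2 of the processed intensity by 1 constant on each array (at least 99.8% of probes within 0.01) with medians of 5.03, and served as an alternative; their scaling is not given in the sources used here.

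From the processed intensity, control spots and 81 to 112 outlier spots per array were left out, spots of a probe were averaged, and the array's 75th percentile (an intensity of 514 and 493 on the knockout arrays, 586 and 486 on the wild-type arrays) was subtracted from log2 values. Genes were tested with limma 3.58.1 (lmFit, eBayes, two-sided) in R 4.3.3, with Benjamini-Hochberg adjustment over 16579 genes; the fit was tested on simulated data, and 4 genes that lost an array to an outlier flag were not fitted. Probe coordinates are mm9. Names are those of the array files: 50 members matched the same RefSeq symbol, 3 another, and 5 none. Promoters were listed for 48 members.

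Named were the granule Rabs, up to 8 members per direction with the smallest p whose arrays did not overlap, members whose probes differed by over 0.5, and up to 4 genes per pathway list and 3 per marker list. Unc13d, Mcpt8, Prss34 and the relatives of named members were added after their values were seen, and Rab42 was moved to the less studied group. Some list genes that this rule names are not reported here. Members and lists were chosen with earlier results of these data known. The alternatives were other background corrections, scalings, filters, probe and name rules, a replicate block and leaving out each array.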

Additional observations from a re-analysis of the deposited data

How the results depend on the processing

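No Rab gene was called under any of the 14 alternatives (other background correction, scaling, filter, probe rule, gene names, replicate block, each array left out). Over all genes, where the count was 0, limma called 5 with normexp, 1 with median scaling and 4 with spike-in scaling. The median Rab difference of 0.12 was 0.0663 with normexp, 0.0722 with quantile normalization and 0.0254 with spike-in scaling, and ran from 0.0527 to 0.121 with single arrays left out, lowest without wild-type array 1. At an unadjusted p of 0.05, the 7 higher Rab genes became 4 with spike-in scaling, with no filter on dim probes, and without either knockout array, and the 2 lower ones became 5 without knockout array 1 and 1 without knockout array 2 or with normexp. Rab5a turned to 0.0420 with the mean over all probes, which takes in a probe not above background on either wild-type array. With the replicate number as a block, 0 genes and 0 Rab genes were called, with 6 Rab genes higher and 2 lower at an unadjusted p of 0.05; deviations of same-numbered arrays correlated at 0.13 over the Rab genes, and arrays with the same number are taken to share only that number. Dim probes limit Rab27b, Rab17 and Rab26, not above background on every array, and Rab13 and Rab4a, whose differences of -0.77 and -0.57 were -0.28 and -0.25 with normexp. The causes of the other shifts were not tested.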
